A study of Homo sapiens with 25 samples.

Results

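Macroautophagy delivers cytoplasm to the lysosome for breakdown, and 55 genes of both systems were followed here through treatment of human cell lines with an inhibitor of the receptor kinase EGFR. The genes were listed by name, as components of the autophagosome machinery, cargo receptors, lysosomal proteins and their regulators, with no cutoff on their values. Each was read from 1 probe set, the one that carried only that gene's symbol and had the highest mean over the 25 arrays. All 55 were among the 19775 genes so represented. A gene was tested when its log2 value exceeded 4 on at least 3 arrays, which held for 54 of the 55 and for 12643 genes in all. The gene left out was CTSS, a cathepsin of antigen-presenting cells, whose group means lay between 2.19 and 3.14.

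Autophagosomes form when the ULK kinase complex and a lipid kinase complex mark a membrane, which then grows by lipid transfer and by conjugation of ATG8 proteins to its lipids. Cargo receptors bind both the ATG8 proteins and the material to be removed, and the closed vesicle fuses with lysosomes, whose hydrolases work at the low pH made by a proton pump. The kinase complex mTORC1, which is recruited to lysosomes by Rag GTPases and acts downstream of growth factor receptors, restrains ULK1 and keeps the transcription factors TFEB, TFE3 and MITF out of the nucleus.

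The arrays covered 8 groups of 3 human cell lines in a time course of 10 µM erlotinib, an inhibitor of the EGFR kinase, which was added after the cells had been plated and had adhered. BT20 is a breast cancer line and was sampled at 0 min (4 arrays) and at 30 min, 6 h and 24 h after the drug (3 arrays each). MDA-MB-453, also a breast cancer line, and a line that the labels call only MCF were sampled at 0 min and 24 h (3 arrays each). The series holds no untreated cells at 24 h, so erlotinib and the time in culture cannot be told apart in any change described here. Fewer cells of a kind and less RNA per cell cannot be told apart either, and the p-values measure the spread between arrays, since the labels do not say that replicates were separate cultures.

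The share of probe sets with a log2 value over 4 ran from 43.1 to 45.6% across the arrays. The BT20 arrays carried high KRT5 (12.37 ± 0.31, SD, n = 4 at 0 min) and EGFR, the MDA-MB-453 arrays high ERBB2 (11.07 ± 0.26, SD, n = 3) and the MCF arrays high ESR1 (12.47 ± 0.09, SD, n = 3). The basal marker KRT14, however, had a mean of only 3.89 in BT20 at 0 min. There 5 of 7 luminal markers had means above 4, among them KRT8 (12.67), KRT18 (13.45), GATA3 (11.13) and ESR1 (8.66). GRB7, the other HER2 marker, had similar 0 min means in MDA-MB-453 (6.06) and BT20 (5.85). Of 5 blood cell markers none had a mean above 4 in any group. Of 3 endothelial markers CDH5 was high in BT20 at each time (means of 10.73 to 11.13), and PECAM1 had means of 3.60 at 0 min and 4.61 at 24 h. Of 5 fibroblast markers 2 lay above 4 in MCF and 1 in each other line, with summed means of 17.6 to 19.2 in BT20. The part of these markers in the changes described here was not tested. One BT20 array at 0 min, replicate 4, stood apart from the rest of its group. It correlated with the 6 h arrays at r = 0.990 to 0.992 and with the other 0 min arrays at 0.971 to 0.975, whereas those correlated with each other at 0.995 to 0.998. The BT20 counts and calls are therefore given a second time from a fit with an array term, in which 6 h is set against replicate 4 alone and every other change is measured from replicates 1 to 3. In the values listed for BT20 at 0 min replicate 4 comes last.

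TFEB and its relatives are known to bind the letters CACGTG, and in lysosomal genes often the longer TCACGTGA, so the promoters of the members are shown before their values. RefSeq windows from 250 bases before to 50 bases after the start of transcription (build GRCh38.p14) were at hand for 44 of the 55 members. The letters CACGTG stood in 11 of these 44 windows (25%) and in 2030 of 27305 windows of all genes (7.43%). The letters TCACGTGA, each match of which also contains CACGTG, stood in 6 of the 44 (13.6%) and in 283 of all windows (1.04%). The windows of all genes were not restricted to protein-coding genes, whereas every member is protein-coding, so the shares have unlike backgrounds. Both motifs read the same on either strand, and a match is a description of the letters, not of binding. The first 5 stretches hold TCACGTGA, in capitals, upstream of or across the start of transcription, and belong to a proton pump subunit, 2 lysosomal enzymes and 2 lysosomal membrane proteins. The last 3 hold CACGTG, in capitals, and belong to the members with CACGTG alone that rose at 24 h in BT20. The strand and the position of each stretch are given with its name.
ATP6V0D1 (chr16:67481184-67481243, strand -): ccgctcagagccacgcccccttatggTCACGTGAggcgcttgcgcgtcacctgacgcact
CTSA (chr20:45891275-45891334, strand +): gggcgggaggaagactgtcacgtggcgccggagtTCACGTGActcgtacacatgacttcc
GAA (chr17:80101478-80101537, strand +): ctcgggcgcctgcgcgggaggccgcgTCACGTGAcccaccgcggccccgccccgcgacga
LAMP1 (chr13:113297179-113297244, strand +): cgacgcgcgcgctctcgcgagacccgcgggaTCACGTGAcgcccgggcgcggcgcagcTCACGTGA
MCOLN1 (chr19:7522556-7522616, strand +): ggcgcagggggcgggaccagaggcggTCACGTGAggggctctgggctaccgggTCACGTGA
ATG14 (chr14:55411831-55411890, strand -): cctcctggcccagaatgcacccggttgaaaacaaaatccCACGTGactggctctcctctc
CTSD (chr11:1763942-1764001, strand -): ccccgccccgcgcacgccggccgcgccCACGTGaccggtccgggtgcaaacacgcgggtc
RRAGC (chr1:38859852-38859911, strand -): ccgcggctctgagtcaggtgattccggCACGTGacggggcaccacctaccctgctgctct
Of the 6 members with TCACGTGA, the ones shown and ATG3, 1 rose at 24 h in BT20 (CTSA) and none fell. Of the 5 members with CACGTG alone 3 rose and none fell, the others being FNIP1 and NEU1. Of the 33 tested members with neither motif in the window 12 rose and 2 fell, among them ULK1, ATG13 and WIPI1, whose changes were among the largest. Of all tested genes 24.1% rose and 18.3% fell in this comparison, and the classes of window were not compared by a test. CALCOCO1, the member with the largest change, had no window in the table used.

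After 24 h of erlotinib in BT20, 20 of the 54 tested members were higher and 3 lower, against 24.1% of all tested genes higher and 18.3% lower, 42.4% in either direction (limma, adjusted p under 0.05). The share of members higher was 37% and the share lower 5.56%, and the median change was 0.22 in log2 units for the members and 0.03 for all tested genes. CALCOCO1, ULK1, ATG13 and WIPI1 rose most, and MITF and ATG16L1 fell most. Of the ULK complex 3 of 4 members rose, of the ATG8 proteins 3 of 4 and of the receptors 4 of 5. Of the group labelled conjugation enzymes 1 of 9 rose and 1 fell, and none of the 3 proton pump subunits passed the test. For the autophagy core, which joins the first 5 groups of the plot of changes at 24 h, 10 of 24 members rose and 1 fell, with a median of 0.31. For the lysosomal enzymes, a group that here includes the cholesterol carrier NPC2, the numbers were 4 and 0 of 11, with a median of 0.28. These are counts and not tests of one group against another. With the array term 24 members rose (30.6% of all tested genes did) and 8 fell (24.9%, 55.5% in either direction), and all 23 calls of the first fit were kept. Of calls whose second value is not given with the gene, the changes with the term were 2.75 for CALCOCO1, 1.45 for ATG13, 1.43 for WIPI1, 0.75 for NBR1, 0.74 for RB1CC1, 0.71 for OPTN and -1.21 for MITF. For ATG10, GABARAP, GABARAPL1 and MAP1LC3B they were 0.55, 0.52, 0.50 and 0.49. For ATG2B, LAMP2, NPC2, CTSA, CTSB and RRAGD they were 0.45, 0.43, 0.32, 0.29, 0.24 and -0.34. Without replicate 4 at 0 min, as with the array term, the count was 32, and without replicate 2 or replicate 3 at 24 h it was 14. For the fits without a 24 h array the share of all tested genes called is not given here.

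**Figure D1:**
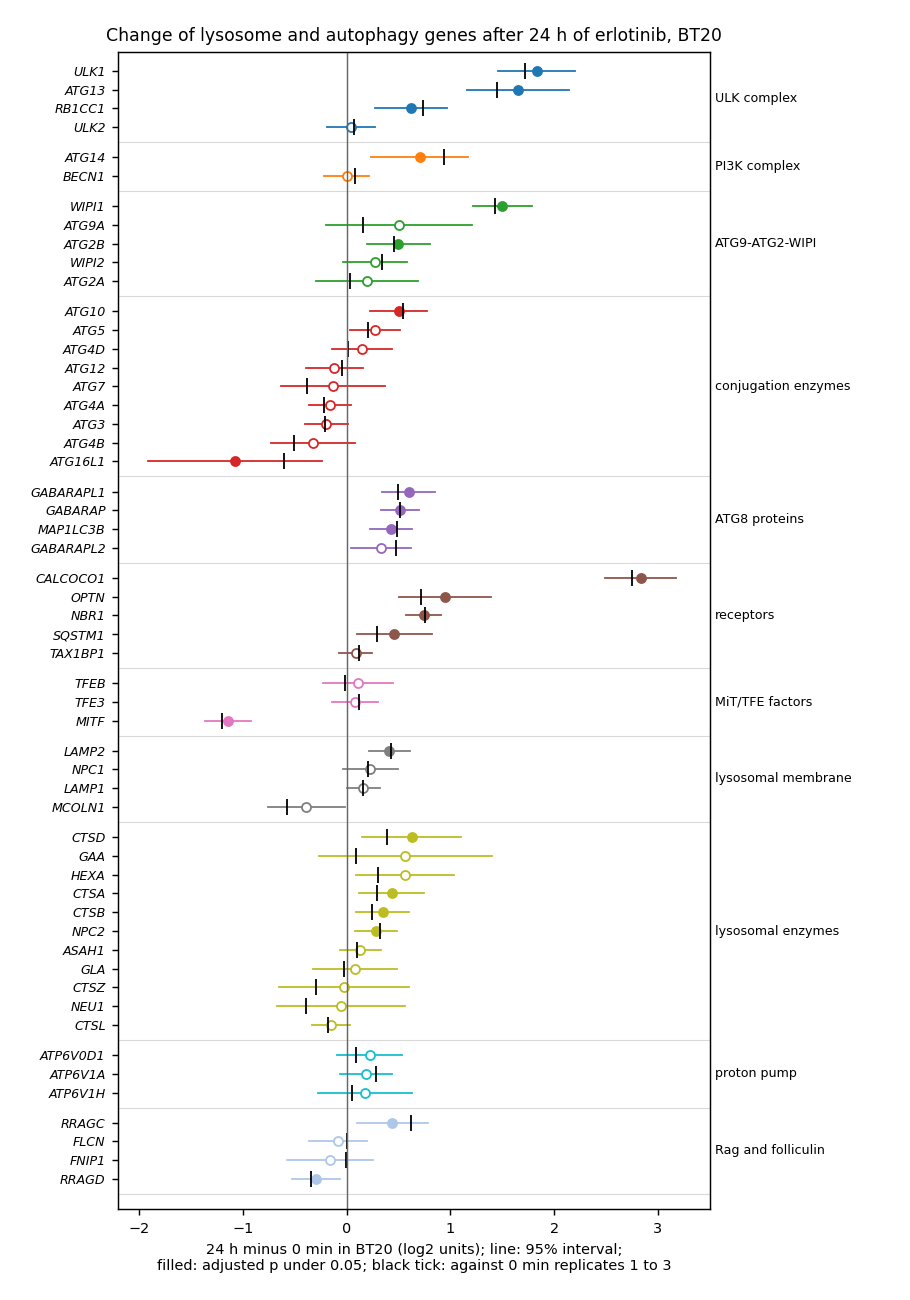
Change at 24 h in BT20 of the 54 tested members, grouped by role, as the difference of the means at 24 h and 0 min in log2 units with its 95% interval; filled points have an adjusted p under 0.05, and a black tick marks the difference from 0 min replicates 1 to 3. CALCOCO1 (2.83), ULK1 (1.83), ATG13 (1.65) and WIPI1 (1.50) lie farthest to the right, and MITF (-1.14) and ATG16L1 (-1.08) farthest to the left.

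The ULK complex, which starts autophagosome formation, rose in 3 of its 4 members (median change 1.14, with ULK2 included although it was not measurable in BT20). ULK1, its catalytic kinase, read 7.32, 7.66, 7.09 and 6.89 at 0 min, 7.33, 7.47 and 7.31 at 30 min, 8.16, 7.90 and 7.62 at 6 h, and 8.95, 9.10 and 9.17 at 24 h. All 24 h arrays lay above every other BT20 array, and the rise was 1.83 ± 0.17 (limma, adjusted p = 3.70e-06), or 3.56-fold; with the array term it was 1.72 ± 0.15. ATG13, which links the kinase to its scaffold, read 7.78, 8.18, 7.54 and 7.03 at 0 min, 7.25, 7.78 and 7.72 at 30 min, 7.29, 7.13 and 6.97 at 6 h, and 9.37, 9.14 and 9.34 at 24 h. Its rise of 1.65 ± 0.22 (limma, adjusted p = 8.45e-05) again left no overlap with 0 min, although the 6 h values were among the lowest; averaged over all its probe sets it was 0.88. The scaffold RB1CC1 (also called FIP200) read 9.94, 9.89, 10.21 and 10.49 at 0 min, 10.31, 9.85 and 9.74 at 30 min, 10.85, 10.93 and 11.03 at 6 h, and 10.84, 10.68 and 10.74 at 24 h. It rose by 0.62 ± 0.16 (limma, adjusted p = 0.00763), and its 6 h arrays were as high as those at 24 h. ULK2, a second kinase of the family, stayed between 1.57 and 2.09 on all 13 BT20 arrays, below the level used for testing; it was tested through the other lines, and a change of it in BT20 could not be measured.

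Of the lipid kinase complex 1 of 2 members rose, and of the ATG9, ATG2 and WIPI proteins, which supply lipid to the membrane, 2 of 5. ATG14, the subunit that directs the lipid kinase to the forming autophagosome, read 9.30, 9.51, 9.14 and 10.27 at 0 min, 9.64, 9.45 and 9.52 at 30 min, 10.61, 10.63 and 10.78 at 6 h, and 10.02, 10.38 and 10.37 at 24 h. It rose by 0.70 ± 0.22 (limma, adjusted p = 0.0198), but replicate 4 at 0 min lay inside the range of the 24 h arrays. The call was lost on leaving out 0 min replicate 1 or 3 or 24 h replicate 2 or 3 (changes of 0.56 to 0.65), and the rise was 0.94 ± 0.12 with the array term. BECN1, the other subunit measured, had a change of 0.00 ± 0.10 and did not pass. WIPI1, which binds the lipid that this complex makes, read 7.65, 7.78, 7.53 and 7.36 at 0 min, 7.23, 7.42 and 7.72 at 30 min, 7.93, 7.98 and 7.74 at 6 h, and 9.04, 9.06 and 9.14 at 24 h. The 24 h arrays were the highest by more than 1 log2 unit, a rise of 1.50 ± 0.13 (limma, adjusted p = 1.98e-06), and a second probe set of the gene rose by 1.30. ATG2B, a lipid transfer protein, rose by 0.50 ± 0.14 (limma, adjusted p = 0.0117), but the mean of its 4 probe sets changed by 0.13 and was not called. WIPI2, ATG2A and the lipid scramblase ATG9A had changes of 0.27 ± 0.14, 0.19 ± 0.23 and 0.51 ± 0.32 and did not pass.

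ATG8 proteins are the small ubiquitin-like proteins joined to autophagosome membranes, and 3 of the 4 measured rose. MAP1LC3B, whose lipid-bound form is the usual marker of autophagosomes, read 11.54, 11.74, 11.61 and 11.86 at 0 min, 11.70, 11.54 and 11.59 at 30 min, 12.18, 12.11 and 12.20 at 6 h, and 12.08, 12.16 and 12.12 at 24 h. Its rise was 0.43 ± 0.09 (limma, adjusted p = 0.00235), and on this probe set the 6 h arrays overlapped those of 24 h. At 6 h MAP1LC3B was higher by 0.47 against all 4 arrays at 0 min. Against replicate 4 alone it was higher by 0.30, which was not called. Its other probe set changed by 0.02 at 6 h and by 0.75 at 24 h. GABARAPL1 read 10.13, 10.30, 10.27 and 9.82 at 0 min, 10.28, 10.23 and 10.26 at 30 min, 10.64, 10.62 and 10.83 at 6 h, and 10.83, 10.63 and 10.72 at 24 h, and its rise was 0.60 ± 0.12 (limma, adjusted p = 0.00121). GABARAP rose by 0.51 ± 0.08 (limma, adjusted p = 0.000349). GABARAPL2 had a change of 0.33 ± 0.13 that did not pass, with replicate 4 at 0 min (12.49) above every 24 h array (12.33 to 12.47); with the array term it was 0.48 ± 0.08 and passed.

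The group labelled conjugation enzymes holds those that join ATG8 proteins and ATG12 to their targets. It also includes ATG12 itself, ATG5, ATG16L1 and the ATG4 proteases. Of its 9 members 1 rose and 1 fell (median change -0.13), and with the array term 1 rose and 4 fell. ATG10, which transfers ATG12 to ATG5, rose by 0.50 ± 0.13 (limma, adjusted p = 0.00675), though the mean of its probe sets differed by 0.32 and was not called. ATG16L1, which places the conjugation machinery on the membrane, read 9.0, 9.22, 8.96 and 10.93 at 0 min, 9.15, 9.11 and 9.21 at 30 min, 10.18, 10.45 and 10.11 at 6 h, and 8.11, 8.57 and 8.68 at 24 h. The 24 h arrays were the lowest, and the difference was -1.08 ± 0.38 (limma, adjusted p = 0.0392), but replicate 4 alone raised the 0 min mean: with the array term the difference was -0.61 ± 0.14. Its call was lost on leaving out any one of the 24 h arrays, with values of -0.90 to -1.19. ATG5 (0.28 ± 0.11), ATG12 (-0.12 ± 0.13), the activating enzyme ATG7 (-0.13 ± 0.23), the transferase ATG3 (-0.20 ± 0.09) and the proteases ATG4A (-0.16 ± 0.09), ATG4B (-0.32 ± 0.19) and ATG4D (0.15 ± 0.13) did not pass.

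Cargo receptors rose in 4 of 5 cases (median 0.74). CALCOCO1, a receptor in the turnover of the endoplasmic reticulum, had the largest change of any member, and its single probe set read 5.81, 5.45, 5.92 and 5.39 at 0 min, 5.61, 5.56 and 5.41 at 30 min, 6.02, 6.25 and 6.16 at 6 h, and 8.73, 8.55 and 8.15 at 24 h. The 24 h arrays lay far above all other BT20 arrays, and the rise was 2.83 ± 0.16 (limma, adjusted p = 4.62e-08), or 7.13-fold. OPTN, a receptor for damaged mitochondria and bacteria, read 10.28, 10.44, 10.25 and 9.38 at 0 min, 10.23, 10.45 and 10.51 at 30 min, 9.54, 9.47 and 9.26 at 6 h, and 11.01, 11.07 and 11.02 at 24 h. It rose by 0.95 ± 0.20 (limma, adjusted p = 0.00253) after 6 h values that lay with replicate 4 below the other 0 min arrays. NBR1, a receptor for ubiquitin-marked cargo, read 11.20, 11.22, 11.23 and 11.26 at 0 min, 11.23, 11.22 and 11.32 at 30 min, 11.62, 11.51 and 11.45 at 6 h, and 11.95, 12.04 and 11.92 at 24 h. Its 0 min arrays, replicate 4 included, lay close together, and the rise was 0.74 ± 0.08 (limma, adjusted p = 8.62e-06). SQSTM1, the receptor known as p62, read 10.93, 10.78, 10.98 and 10.21 at 0 min, 10.95, 10.73 and 10.57 at 30 min, 10.57, 10.51 and 10.50 at 6 h, and 11.21, 11.28 and 11.07 at 24 h and rose by 0.46 ± 0.16 (limma, adjusted p = 0.0396). With the array term the SQSTM1 rise was 0.29 ± 0.10, its 5 probe sets gave changes of -0.17 to 1.00, and the call was lost without 0 min replicate 2 or any one 24 h array (0.41 to 0.52). TAX1BP1 had a change of 0.09 ± 0.07 and did not pass.

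**Figure D2:**
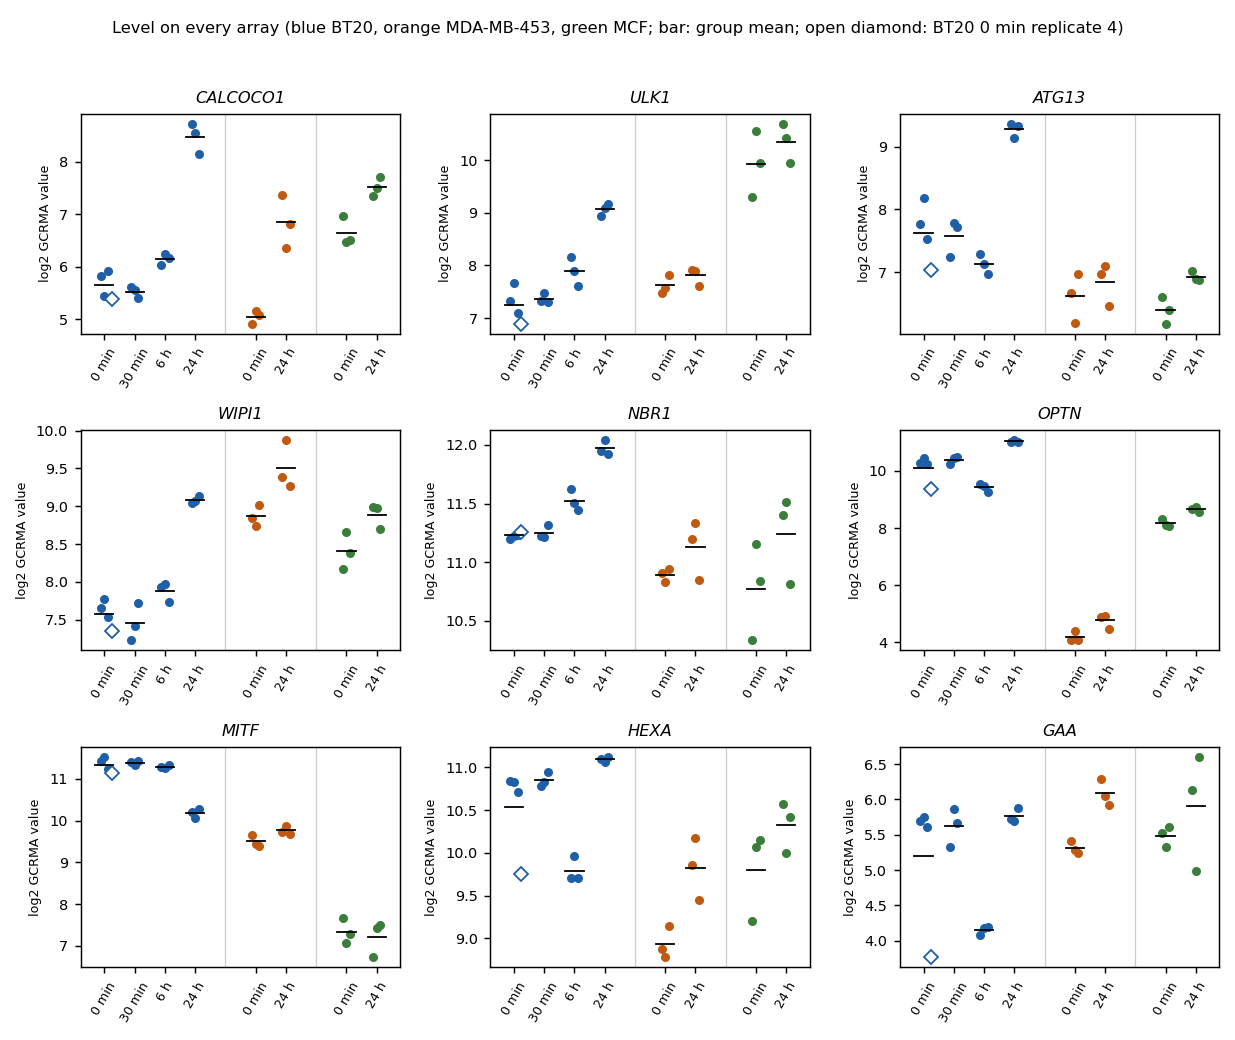
Deposited log2 value on each of the 25 arrays for 9 members, by line and time, with a bar at each group mean and BT20 0 min replicate 4 as an open diamond. The 24 h mean of CALCOCO1 lies above that of 0 min in all 3 lines (by 2.83, 1.80 and 0.87, the last not called), ULK1, ATG13 and WIPI1 are highest within BT20 at 24 h, MITF is lowest there, and for HEXA and GAA the diamond lies with the 6 h arrays.

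Of the transcription factors that drive lysosomal genes, MITF fell and the other two did not pass the test. MITF read 11.42, 11.52, 11.23 and 11.14 at 0 min, 11.40, 11.33 and 11.42 at 30 min, 11.29, 11.25 and 11.33 at 6 h, and 10.22, 10.06 and 10.28 at 24 h. All 24 h arrays lay below every other BT20 array, a difference of -1.14 ± 0.10 (limma, adjusted p = 2.42e-06). Of the 3 probe sets of MITF, 2 met the level used for testing, and both were lower (-1.22 and -1.14). TFE3 read 11.22, 11.11, 11.24 and 11.34 at 0 min, 11.29, 11.12 and 10.94 at 30 min, 11.40, 11.47 and 11.57 at 6 h, and 11.40, 11.24 and 11.28 at 24 h, and its change was 0.08 ± 0.10, with a 95% interval of -0.14 to 0.30. TFEB read 4.75, 4.74, 4.76 and 4.25 at 0 min, 4.87, 4.60 and 4.51 at 30 min, 4.12, 4.33 and 4.58 at 6 h, and 4.90, 4.61 and 4.69 at 24 h, close to the level used for testing, and its change was 0.11 ± 0.15, with an interval of -0.23 to 0.44. These are transcript levels, and the place of the proteins in the cell was not measured.

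Of the lysosomal membrane proteins 1 of 4 rose at 24 h, and of the enzyme group, NPC2 included, 4 of 11. LAMP2, a major glycoprotein of the lysosomal membrane, rose by 0.41 ± 0.09 (limma, adjusted p = 0.00297), with 4 probe sets between -0.14 and 0.93. LAMP1, its relative, read 13.26, 13.22, 13.13 and 13.19 at 0 min, 13.19, 13.22 and 13.20 at 30 min, 13.07, 13.21 and 13.12 at 6 h, and 13.34, 13.37 and 13.36 at 24 h, which is a change of 0.16 ± 0.07 that did not pass. The cholesterol exporter NPC1 (0.23 ± 0.12) and the calcium channel MCOLN1 (-0.39 ± 0.17) did not pass; with the array term MCOLN1 was lower, at -0.57 ± 0.10. CTSD, an aspartic protease, read 9.93, 10.03, 9.57 and 8.90 at 0 min, 9.61, 9.90 and 9.95 at 30 min, 8.78, 8.81 and 8.98 at 6 h, and 10.27, 10.28 and 10.15 at 24 h. Its rise of 0.63 ± 0.22 (limma, adjusted p = 0.0354) was 0.39 ± 0.13 with the array term. CTSA (0.43 ± 0.14), the protective protein of the sialidase complex, CTSB (0.35 ± 0.12), a cysteine protease, and NPC2 (0.28 ± 0.09), a soluble cholesterol carrier, rose as well. None of these 4 calls held in every fit that left out 1 array. Each was lost without any one of the 24 h arrays, and those of CTSD, CTSA and NPC2 also without 0 min replicate 3. The adjusted p ran up to 0.0951, 0.0753, 0.0931 and 0.0835 (limma) for CTSD, CTSA, CTSB and NPC2. The glycosidases HEXA (0.56 ± 0.22), GAA (0.57 ± 0.38), GLA (0.08 ± 0.19) and NEU1 (-0.05 ± 0.28), the proteases CTSL (-0.15 ± 0.08) and CTSZ (-0.02 ± 0.29) and the ceramidase ASAH1 (0.13 ± 0.09) did not pass.

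Of the proton pump subunits none passed the test, and of the 4 Rag and folliculin genes 1 rose and 1 fell. ATP6V1H, a regulatory subunit of the pump, read 11.20, 11.32, 10.78 and 10.60 at 0 min, 10.67, 11.36 and 11.42 at 30 min, 10.50, 10.72 and 10.30 at 6 h, and 11.05, 11.13 and 11.28 at 24 h, with a change of 0.18 ± 0.21. ATP6V0D1 and ATP6V1A had changes of 0.22 ± 0.15 and 0.19 ± 0.11. RRAGC, a Rag GTPase, rose by 0.44 ± 0.16 (limma, adjusted p = 0.0397), but its values of 9.85, 9.87, 9.92 and 10.60 at 0 min, 10.04, 9.96 and 10.06 at 30 min, 10.93, 10.80 and 10.83 at 6 h, and 10.44, 10.56 and 10.50 at 24 h show replicate 4 above the 24 h arrays; the call was lost on leaving out any 1 of 6 arrays (all but replicate 4), and with the array term the rise was 0.62 ± 0.08. RRAGD, the partner GTPase that is itself a target of TFEB, read 8.44, 8.53, 8.40 and 8.26 at 0 min, 8.16, 8.50 and 8.50 at 30 min, 8.0, 8.09 and 8.13 at 6 h, and 8.22, 8.02 and 8.10 at 24 h. It was lower by -0.30 ± 0.11 (limma, adjusted p = 0.0406), a call lost on leaving out any 1 of 5 arrays (0 min replicates 1, 2 and 3 and 24 h replicates 2 and 3) and with the mean of its 2 probe sets (-0.10). FLCN and FNIP1 form the complex that activates RRAGC and RRAGD. FLCN read 10.95, 11.01, 11.17 and 11.38 at 0 min, 11.23, 11.07 and 10.91 at 30 min, 11.35, 11.37 and 11.67 at 6 h, and 10.94, 11.09 and 11.10 at 24 h, a change of -0.08 ± 0.13, and FNIP1 read 10.00, 10.08, 10.36 and 10.76 at 0 min, 10.33, 9.69 and 9.69 at 30 min, 11.23, 11.16 and 11.34 at 6 h, and 10.10, 10.09 and 10.23 at 24 h, a change of -0.16 ± 0.19, and neither passed.

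At 30 min no member passed the test in BT20, with the array term or without it (limma; 0 members also at an unadjusted p under 0.05, against 3.94% of all tested genes). Of all tested genes 0% were called higher and 0.00791% lower, and with the array term 0% and 0.0237%. Member changes at 30 min ran from -0.39 (FNIP1) to 0.51 (ATG9A), neither of them called.

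At 6 h the sizes of the changes and the calls differed with the 0 min arrays that served as the control. Against all 4 of them 17 members were higher and 16 lower, with 26.1% of all tested genes higher and 25.9% lower (52% in either direction). Against replicate 4 alone 2 were higher and none lower, with 3.62% of all tested genes higher and 3.61% lower (7.23% in either direction). That control is a single array, assumed to vary like the other BT20 arrays, from which the spread was taken, and a missing call does not show that a gene did not change: ATG10 and CALCOCO1 differed from replicate 4 by 0.59 and 0.75 and were not called (limma, adjusted p = 0.0667 and 0.0528). The 2 members called were ULK1, which rose by 0.65 ± 0.17 against all 4 arrays and by 1.0 against replicate 4 (limma, adjusted p = 0.00869 and 0.0141), and GABARAPL1, which rose by 0.57 ± 0.12 and 0.87 (limma, adjusted p = 0.00301 and 0.00096). Their adjusted p ran up to 0.0453 and 0.0228 over all alternatives. The 6 h arrays of both lay above replicate 4, and those of GABARAPL1 above all 4 of the 0 min arrays.

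The lysosomal enzymes show the dependence on the control most plainly. Against all 4 arrays 7 of 11 were lower at 6 h and none higher, on the 1 probe set used for each gene. When all probe sets were tested, 2 of the 5 of CTSB were called higher (changes of -0.30 to 1.20). So was 1 of the 4 tested for ASAH1 (-0.09 to 0.48), while both of the 2 probe sets of CTSZ were called lower. NEU1, a sialidase, read 10.03, 9.95, 9.81 and 8.57 at 0 min, 9.71, 10.09 and 10.11 at 30 min, 8.40, 8.39 and 8.22 at 6 h, and 9.51, 9.44 and 9.67 at 24 h. CTSZ, a carboxypeptidase, read 10.89, 11.06, 10.24 and 9.64 at 0 min, 10.30, 10.98 and 10.94 at 30 min, 8.94, 9.02 and 9.09 at 6 h, and 10.32, 10.61 and 10.38 at 24 h. GAA, the acid glucosidase, read 5.69, 5.75, 5.61 and 3.77 at 0 min, 5.33, 5.87 and 5.67 at 30 min, 4.08, 4.18 and 4.20 at 6 h, and 5.73, 5.70 and 5.89 at 24 h. In all 3 the 6 h arrays were far below 0 min replicates 1 to 3, by a mean of -1.59, -1.72 and -1.53, while against replicate 4 the differences were -0.23, -0.63 and 0.39. HEXA, the subunit of hexosaminidase lacking in Tay-Sachs disease, read 10.84, 10.83, 10.71 and 9.75 at 0 min, 10.79, 10.83 and 10.95 at 30 min, 9.70, 9.97 and 9.71 at 6 h, and 11.10, 11.07 and 11.12 at 24 h, with 6 h values on both sides of replicate 4. The GAA call was lost on leaving out any 1 array but replicate 4 (-0.87 to -1.07), and that of HEXA without 6 h replicate 1 or 3 (-0.70 each) and with the mean of its probe sets (-0.21). Over the 11 members of the enzyme group, NPC2 included, the median was -0.71 against replicates 1 to 3 and -0.04 against replicate 4. For the lysosomal membrane proteins the medians were -0.03 and 0.02, for the proton pump -0.59 and -0.09, and for the Rag and folliculin genes 0.70 and 0.17. For the autophagy core they were 0.21 and 0.14, and for the receptors 0.27 and 0.26.

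**Figure D3:**
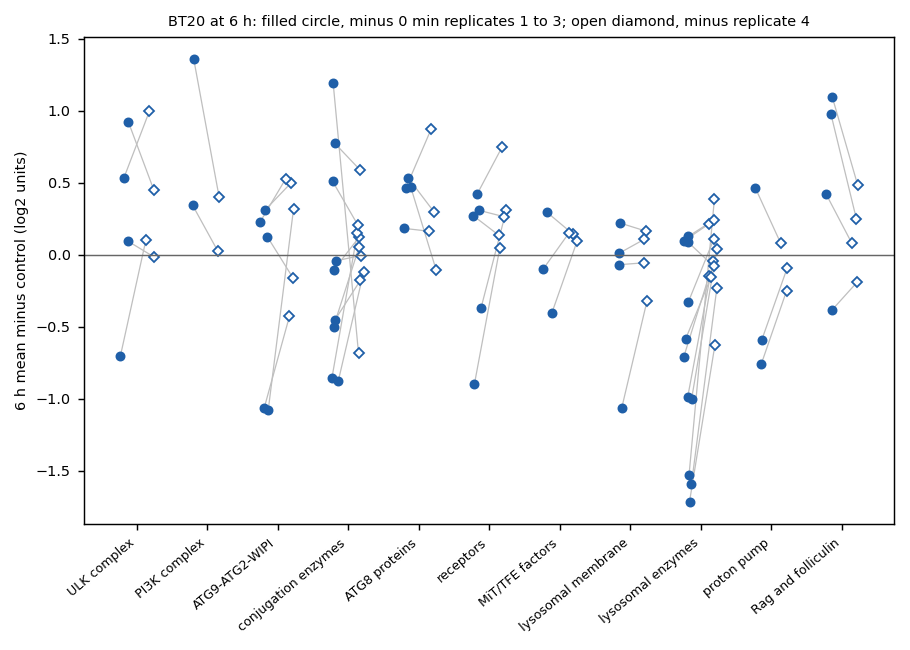
Mean of the 6 h arrays of BT20 minus 0 min replicates 1 to 3 (filled circles) and minus replicate 4 (open diamonds) for the 54 tested members by role, in log2 units, with a line joining both values of a gene. The lysosomal enzymes spread far below 0 against replicates 1 to 3 (median -0.71) and lie around 0 against replicate 4 (median -0.04).

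Of the other members called against all 4 arrays, some differed much less from replicate 4 and some about as much. ATG14 was higher at 6 h by 1.12 ± 0.22 against all 4 arrays and by 0.40 against replicate 4, FNIP1 by 0.94 ± 0.19 and 0.49, RB1CC1 by 0.80 ± 0.16 and 0.45, RRAGC by 0.79 ± 0.16 and 0.25, and ATG10 by 0.73 ± 0.13 and 0.59. CALCOCO1 was higher by 0.50 ± 0.16 (limma, adjusted p = 0.0201), less than its difference from replicate 4, and lost the first call without 0 min replicate 2 or 6 h replicate 2 or 3 (0.44 to 0.49). The mean of the RRAGC probe sets changed by -0.07, and that of the ATG10 probe sets rose by 0.38. Among those lower against all 4 arrays were ATG2A (-0.91 ± 0.23, and -0.43 against replicate 4), MCOLN1 (-0.88 ± 0.17 and -0.32), ATG4B (-0.69 ± 0.19 and -0.12) and CTSD (-0.75 ± 0.22 and -0.04). ATG2A read 6.05, 5.85, 5.61 and 5.20 at 0 min, 5.0, 5.77 and 5.94 at 30 min, 4.71, 4.85 and 4.74 at 6 h, and 5.93, 5.70 and 5.98 at 24 h. MCOLN1 read 5.85, 5.81, 5.68 and 5.03 at 0 min, 5.64, 5.64 and 5.84 at 30 min, 4.86, 4.74 and 4.55 at 6 h, and 5.15, 5.17 and 5.30 at 24 h. ATG4B read 9.54, 9.29, 9.64 and 8.73 at 0 min, 9.42, 9.19 and 9.20 at 30 min, 8.61, 8.41 and 8.82 at 6 h, and 9.02, 8.92 and 9.01 at 24 h. The 6 h arrays were below every 0 min array for ATG2A and MCOLN1, and on both sides of replicate 4 for ATG4B. ATG10 read 7.98, 7.76, 8.05 and 8.11 at 0 min, 8.01, 7.92 and 7.61 at 30 min, 8.59, 8.59 and 8.93 at 6 h, and 8.45, 8.50 and 8.47 at 24 h, with each 6 h array above each 0 min array. In 5 called members (ATG4D, ATG7, OPTN, HEXA and GAA) the sign turned with the control. The count of 33 was 40 without replicate 4 and was 21, 21 and 20 without 0 min replicate 2, 6 h replicate 1 and 6 h replicate 3. The shares of all tested genes called in these fits are not given here, so the counts do not set the members apart from other genes.

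Between 6 h and 24 h in BT20, 24 members were higher and 6 lower, with 29.6% of all tested genes higher and 24% lower (53.7% in either direction). With the array term, where the 6 h change from replicate 4 is taken from the 24 h change from replicates 1 to 3, 6 were higher (15.5% of all tested genes) and 1 lower (10.7%, 26.3% in either direction). Members called in both fits were CALCOCO1 (by 2.33 ± 0.17, and 2.0 with the term), ATG13 (2.15 ± 0.24 and 1.35), OPTN (1.61 ± 0.22 and 0.67), WIPI1 (1.20 ± 0.14 and 0.90), NBR1 (0.45 ± 0.08 and 0.49) and MITF (-1.11 ± 0.11 and -1.35). With the mean of all probe sets the differences were 1.30 for ATG13 and -0.51 for MITF, both called, and 0.07 for NBR1, not called. Among the calls of the first fit that the second did not keep were GAA (1.62 ± 0.41, then -0.30), CTSZ (1.42 ± 0.31, then 0.33), CTSD (1.38 ± 0.23, then 0.43), HEXA (1.30 ± 0.23, then 0.26), ATG9A (1.24 ± 0.35, then -0.16), ATG16L1 (-1.80 ± 0.41, then 0.08) and FNIP1 (-1.10 ± 0.20, then -0.49). ATG12 (-0.55 ± 0.14), FLCN (-0.42 ± 0.14) and CTSL (-0.28 ± 0.09) were lower in the first fit and not called in the second; FLCN lost its call without 24 h replicate 1 or 6 h replicate 3 (-0.37 and -0.32), CTSL without 24 h replicate 1 or 3 or 6 h replicate 2 (-0.25 each), and with the mean of probe sets ATG12 (-0.16) and FLCN (-0.06) were not called. ATG9A read 8.42, 8.17, 7.82 and 6.74 at 0 min, 7.93, 8.64 and 8.34 at 30 min, 6.86, 7.18 and 7.14 at 6 h, and 8.39, 8.45 and 8.05 at 24 h. ATG12 read 10.62, 10.59, 10.87 and 11.00 at 0 min, 10.92, 10.69 and 10.68 at 30 min, 11.29, 11.20 and 11.12 at 6 h, and 10.77, 10.75 and 10.43 at 24 h. CTSL read 9.67, 9.48, 9.49 and 9.43 at 0 min, 9.55, 9.48 and 9.51 at 30 min, 9.60, 9.70 and 9.63 at 6 h, and 9.33, 9.45 and 9.33 at 24 h. In each of the 3 the 24 h arrays did not overlap those of 6 h. The sign of 7 called members turned with the term. This comparison shares its arrays with those of 6 h and 24 h against 0 min.

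In MDA-MB-453, where the EGFR transcript lay below the level used for testing (3.53 ± 0.20 at 0 min, SD, n = 3), 5 members were higher at 24 h and none lower, with 5.66% of all tested genes higher and 2.64% lower (8.3% in either direction). The 5 were 1 receptor, 1 membrane protein and 3 enzymes. CALCOCO1 read 4.91, 5.15 and 5.08 at 0 min and 7.36, 6.36 and 6.81 at 24 h, a rise of 1.80 ± 0.25 (limma, adjusted p = 0.0105), or 3.47-fold. LAMP2 read 10.25, 10.04 and 10.22 at 0 min and 10.85, 10.72 and 10.76 at 24 h, a rise of 0.61 ± 0.10 (limma, adjusted p = 0.0168). The 24 h arrays lay above the 0 min arrays in both. HEXA read 8.87, 8.78 and 9.15 at 0 min and 9.85, 10.18 and 9.44 at 24 h, a rise of 0.89 ± 0.20 (limma, adjusted p = 0.0461). GAA read 5.41, 5.28 and 5.24 at 0 min and 6.30, 6.05 and 5.92 at 24 h, a rise of 0.78 ± 0.12 (limma, adjusted p = 0.0165). CTSA read 9.81, 9.90 and 9.97 at 0 min and 10.33, 10.40 and 10.28 at 24 h, a rise of 0.45 ± 0.09 (limma, adjusted p = 0.0341). These 3 enzymes did not overlap between the times either. Only CALCOCO1 kept its call in each of the 6 fits that left out 1 array; the count of members was 1 without any one of the 0 min arrays or without 24 h replicate 1, and without those arrays LAMP2 had changes of 0.55 to 0.65, GAA of 0.67 to 0.83, HEXA of 0.81 to 1.00 and CTSA of 0.40 to 0.48. HEXA lost its call without 24 h replicate 2 as well (0.71), and CTSA in all 6 fits. The means of all probe sets of HEXA (0.42) and LAMP2 (0.47) were not called. Over all 54 members the median change was 0.21, against 0.02 for all tested genes, and 20 of the 54 had an unadjusted p under 0.05, against 24.5% of all tested genes. ULK1 (0.18 ± 0.13), ATG13 (0.23 ± 0.24) and WIPI1 (0.64 ± 0.18) did not pass. When all probe sets were tested, however, 1 of the 2 probe sets of WIPI1 was called higher (changes of 0.64 and 0.68). So was 1 of 3 for ULK2 (0.51 to 0.82) and 1 of 3 for ATG10 (0.55 to 0.88), while no probe set of HEXA or CTSA was called. CALCOCO1, LAMP2 and CTSA were the 3 of 54 members called higher at 24 h in both BT20 and MDA-MB-453, as were 3.37% of all tested genes.

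In the line labelled MCF no member was called at 24 h (limma; 6 of the 54 had an unadjusted p under 0.05, against 5.82% of all tested genes), with 0% of all tested genes higher and 0.00791% lower. CALCOCO1 read 6.97, 6.47 and 6.51 at 0 min and 7.35, 7.49 and 7.71 at 24 h, and all 24 h arrays lay above the 0 min arrays. The CALCOCO1 difference was 0.87 ± 0.20, with a 95% interval of 0.37 to 1.37 (limma, adjusted p = 0.393), so a change of that size was not called with the spread of these arrays. NEU1 read 8.43, 9.10 and 9.34 at 0 min and 9.86, 9.92 and 9.66 at 24 h, a difference of 0.86 ± 0.26 (limma, adjusted p = 0.624). ATG13 had a difference of 0.54 ± 0.17, WIPI1 of 0.48 ± 0.19 and OPTN of 0.47 ± 0.15. Given the spread of these arrays, the missing calls do not show that the members did not change. The MCF arrays make up a second part of the series, and part and line cannot be told apart. In MCF, as in MDA-MB-453, the mean of the EGFR transcript at 0 min lay below the level used for testing (3.52 ± 0.56, SD, n = 3). The median residual SD of the tested genes was 0.316 in MCF, 0.194 in BT20 and 0.169 in MDA-MB-453.

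The 24 h change differed between BT20 and MDA-MB-453 in 10 members by a test of the difference itself, 6 higher and 4 lower in BT20, with 11.4% of all tested genes higher and 10.4% lower (21.8% in either direction). The 4 include ULK2, whose BT20 arrays lay below the level used for testing, so no difference in response was measured for it. ULK1 rose more in BT20 by 1.65 ± 0.24 (limma, adjusted p = 7.50e-05). Its MDA-MB-453 arrays read 7.48, 7.58 and 7.81 at 0 min and 7.91, 7.90 and 7.62 at 24 h and overlapped between the times. ATG13 differed by 1.42 ± 0.35 (limma, adjusted p = 0.00704) and by 0.80 with the mean of its probe sets. In MDA-MB-453 ATG13 read 6.66, 6.20 and 6.98 at 0 min and 6.97, 7.09 and 6.47 at 24 h, again with overlap. CALCOCO1 differed by 1.04 ± 0.29 (limma, adjusted p = 0.0147), and WIPI1 by 0.86 ± 0.22 (limma, adjusted p = 0.00829). WIPI1 read 8.84, 8.74 and 9.02 at 0 min and 9.39, 9.87 and 9.27 at 24 h in MDA-MB-453, where the 24 h arrays were above those of 0 min. NBR1 differed by 0.51 ± 0.14 (limma, adjusted p = 0.017) but by 0.17, not called, with the mean of its probe sets. ATG5 differed by 0.52 ± 0.16 (limma, adjusted p = 0.0258), with MDA-MB-453 arrays at 10.12, 10.33 and 10.03 at 0 min and 9.95, 9.84 and 9.96 at 24 h. NBR1 in MDA-MB-453 read 10.91, 10.83 and 10.95 at 0 min and 11.20, 11.34 and 10.85 at 24 h, and its replicate 3 at 24 h lay among the 0 min arrays.

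The 4 members whose change was lower in BT20 than in MDA-MB-453 were MITF, CTSL, RRAGD and ULK2. MITF differed by -1.41 ± 0.15 (limma, adjusted p = 2.59e-06); it read 9.65, 9.45 and 9.40 at 0 min and 9.73, 9.87 and 9.69 at 24 h in MDA-MB-453, where no fall was seen, and the mean of its probe sets differed by -0.84. CTSL, a cysteine protease, differed by -0.91 ± 0.20 (limma, adjusted p = 0.00336), with MDA-MB-453 arrays at 6.40, 6.47 and 6.96 at 0 min and 7.51, 7.57 and 7.03 at 24 h. RRAGD differed by -0.81 ± 0.17 (limma, adjusted p = 0.00203), with MDA-MB-453 arrays at 4.87, 5.03 and 4.69 at 0 min and 5.40, 5.19 and 5.54 at 24 h. In both the 24 h arrays of MDA-MB-453 lay above those of 0 min. ULK2 met the threshold too, at -0.69 ± 0.22 (limma, adjusted p = 0.0327), with MDA-MB-453 arrays at 8.56, 9.0 and 8.41 at 0 min and 9.59, 9.04 and 9.52 at 24 h. Its BT20 arrays lay below the level used for testing at every time, so that value reflects MDA-MB-453 alone, and no difference in response was measured. In MDA-MB-453 its own change of 0.73 ± 0.21 was not called. When all probe sets were tested, 1 of its 3 tested ones was called higher there. The calls of ATG5 and ULK2 were each lost on leaving out single arrays (4 for ATG5, at differences of 0.44 to 0.52, and 7 for ULK2, at -0.57 to -0.67): for ATG5 BT20 24 h replicates 2 and 3 and MDA-MB-453 replicate 2 at either time, and for ULK2 BT20 0 min replicate 2, BT20 24 h replicates 2 and 3, and MDA-MB-453 replicates 1 and 3 at either time. With the array term, as without replicate 4 at 0 min, the count was 20, with 10 members higher (17.4% of all tested genes) and 10 lower (15.5%, 32.9% in either direction), all 10 first calls among them.

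The BT20 change was also set against that of MCF, through the changes within each line, and 4 members were higher and 1 lower in BT20, with 8.53% of all tested genes higher and 4.92% lower (13.4% in either direction). CALCOCO1 differed by 1.96 ± 0.25 (limma, adjusted p = 4.85e-05) and ULK1 by 1.41 ± 0.37 (limma, adjusted p = 0.0173). WIPI1 differed by 1.02 ± 0.22 (limma, adjusted p = 0.0039), and MITF by -1.03 ± 0.25 (limma, adjusted p = 0.0118), or by -0.66 with the mean of its probe sets. With array weights the ULK1 difference was 0.90. The MCF arrays of these genes overlapped between the times for ULK1 (9.30, 10.55 and 9.95 at 0 min and 10.70, 10.42 and 9.94 at 24 h) and for MITF (7.67, 7.08 and 7.28 at 0 min and 6.73, 7.44 and 7.50 at 24 h) and did not for WIPI1 (8.17, 8.66 and 8.39 at 0 min and 8.99, 8.98 and 8.70 at 24 h). ATG13 differed by 1.11 ± 0.31 (limma, adjusted p = 0.0236), with MCF arrays at 6.61, 6.18 and 6.40 at 0 min and 7.02, 6.90 and 6.87 at 24 h; the call was lost without BT20 24 h replicate 1 or 3 or MCF 0 min replicate 1 (1.01 to 1.09) and with the mean of its probe sets (0.49). With the array term 6 members were higher (12.6% of all tested genes) and 2 lower (7.4%, 20% in either direction), all 5 first calls among them, and without replicate 4 at 0 min the count was also 8. Both comparisons use the same BT20 arrays, so they are not separate evidence for the BT20 change.

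**Figure D4:**
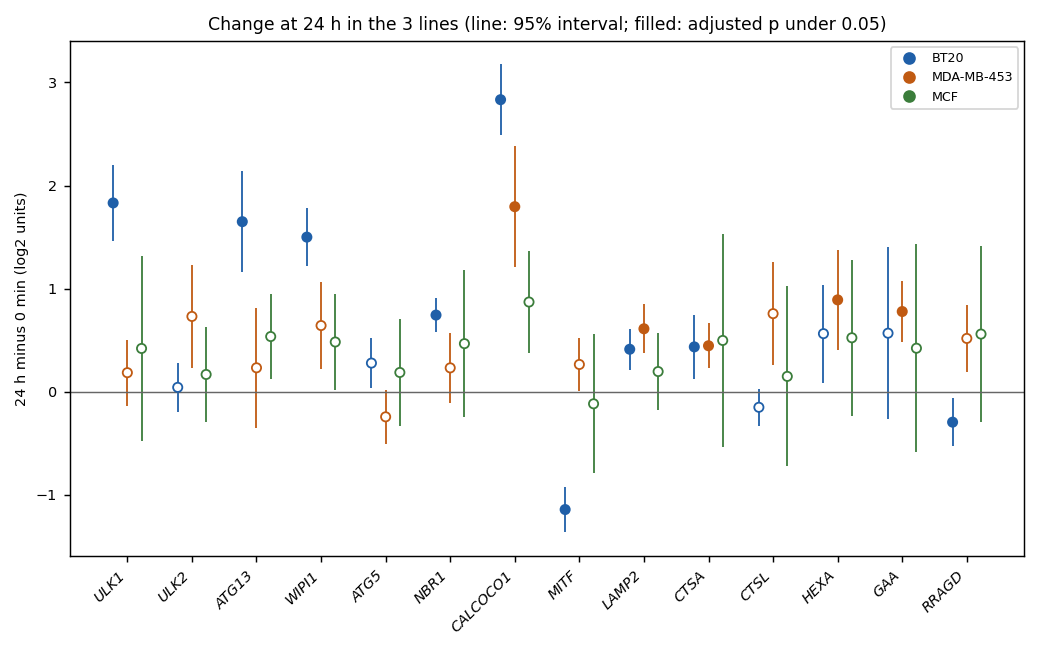
Change at 24 h against 0 min of 14 members in BT20, MDA-MB-453 and MCF, in log2 units with 95% intervals; filled points have an adjusted p under 0.05 within the line. ULK1, ATG13, WIPI1 and CALCOCO1 lie highest in BT20 and MITF lowest, and MCF has no filled point.

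Most members differed between untreated BT20 and MDA-MB-453 cells. In BT20 27 were higher and 15 lower, with 36.7% of all tested genes higher and 37.9% lower (74.6% in either direction), and with the array term 30 (39.1%) and 14 (39.5%; 78.6% in either direction). All 5 receptors were higher in BT20, and 3 of the 4 Rag and folliculin genes were lower. OPTN read 10.28, 10.44, 10.25 and 9.38 in BT20 and 4.09, 4.40 and 4.07 in MDA-MB-453, a difference of 5.90 ± 0.20. GABARAPL1 read 10.13, 10.30, 10.27 and 9.82 in BT20 and 4.75, 4.96 and 4.04 in MDA-MB-453, a difference of 5.55 ± 0.17. Both of these genes were thus near the level used for testing in MDA-MB-453. CTSZ was higher in BT20 by 4.75 ± 0.26 (MDA-MB-453 arrays at 5.81, 5.60 and 5.71), RRAGD by 3.54 ± 0.12 (4.87, 5.03 and 4.69) and CTSL by 2.91 ± 0.14 (6.40, 6.47 and 6.96). ATG7 read 9.40, 9.48, 9.30 and 8.39 in BT20 and 6.60, 6.84 and 6.93 in MDA-MB-453, and was higher by 2.35 ± 0.21. MITF was higher by 1.83 ± 0.10 and HEXA by 1.60 ± 0.22. In the other direction ULK2 read 8.56, 9.0 and 8.41 in MDA-MB-453 and 1.93, 1.99, 1.82 and 2.02 in BT20, there below the level used for testing, so no size is given for its difference. GLA, the galactosidase lacking in Fabry disease, read 8.42, 8.42, 8.03 and 7.86 in BT20 and 10.00, 10.21 and 10.12 in MDA-MB-453, and was lower by -1.93 ± 0.17. WIPI1 was lower by -1.29 ± 0.15, ATG16L1 by -0.98 ± 0.33 (10.46, 10.39 and 10.67 in MDA-MB-453) and RRAGC by -0.89 ± 0.14 (10.95, 10.90 and 11.01). ATG14 was lower by -0.89 ± 0.19 (10.59, 10.41 and 10.34 in MDA-MB-453) and FNIP1 by -0.80 ± 0.18 (11.25, 11.08 and 10.97). ATG2B read 8.52, 8.52, 8.71 and 8.40 in BT20 and 9.43, 9.16 and 9.34 in MDA-MB-453, and was lower by -0.78 ± 0.13. Apart from ATG16L1, no array of one line lay within the range of the other in these genes. Each of these was called by limma at an adjusted p of 0.0141 or less. ATG16L1 overlapped between the lines at replicate 4 alone, and its difference was -1.45 with the array term. ULK1 stood apart by -0.39 ± 0.16 (limma, adjusted p = 0.0409), a call not kept with the term nor without BT20 replicate 3 or 4 or MDA-MB-453 replicate 2 or 3 (-0.27 to -0.41). With the mean of all probe sets the differences were 2.28 for RRAGD, 0.49 for HEXA, -2.09 for ATG2B and -0.55 for ATG16L1, all called, and -0.14 for RRAGC, not called. WIPI1, lower in BT20 before treatment, had a mean of 9.08 in BT20 at 24 h, against 9.51 in MDA-MB-453.

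Further genes of the same systems, listed by their role, gave the setting of the members at 24 h in BT20. Of 153 listed genes 134 were tested, and 44 rose and 15 fell, which is 32.8% and 11.2% of them, against 24.1% and 18.3% of all tested genes, and with the array term 49 and 27, against 30.6% and 24.9%. Of 25 other core autophagy genes 9 rose and 1 fell: ZFYVE1, which marks sites of autophagosome formation, by 2.39 ± 0.14, ATG9B by 0.93 ± 0.16 from a mean below 4, and AMBRA1, a regulator of the lipid kinase complex, by 0.54 ± 0.11, while RAB7A, a GTPase of late endosomes, changed by -0.31 ± 0.09. Of 9 other receptors 3 rose and 1 fell: CALCOCO2 by 1.25 ± 0.12, the mitochondrial receptor BNIP3L by 1.04 ± 0.16 and CCPG1, a receptor of the endoplasmic reticulum, by 0.65 ± 0.15, and BNIP3 changed by -0.45 ± 0.14. Of 31 other lysosomal enzymes 13 rose and 4 fell, among them GALC (0.92 ± 0.10), TPP1 (0.92 ± 0.13) and PPT1 (0.54 ± 0.11) upwards, and FUCA1 (-0.77 ± 0.14), LIPA (-0.58 ± 0.10) and CTSC (-1.07 ± 0.34) downwards. Of 18 other membrane proteins 6 rose and 1 fell, with SIDT2 (1.09 ± 0.12), LAMP3 (0.91 ± 0.10) and the calcium channel TPCN1 (0.88 ± 0.21) higher and the cystine transporter CTNS (-0.78 ± 0.23) lower.

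The remaining pump subunits moved both ways. Of 18 tested 4 rose and 4 fell: ATP6V1C2 by 1.50 ± 0.10 from a mean of 3.63, ATP6V1E2 by 1.09 ± 0.08 and ATP6V0E2 by 0.51 ± 0.09, against ATP6V0B (-0.38 ± 0.10), ATP6V0C (-0.38 ± 0.12) and ATP6V1G1 (-0.27 ± 0.09). Of 24 genes of mTORC1 and its regulators at the lysosome 8 rose and 3 fell. RRAGB (0.85 ± 0.10), TSC1 (0.72 ± 0.14), which restrains mTORC1, and RRAGA (0.41 ± 0.09) were higher, and DEPTOR (-0.58 ± 0.12), an inhibitor bound to mTOR, FNIP2 (-0.93 ± 0.27) and MIOS (-0.55 ± 0.18) were lower. Of 9 genes that sort enzymes to lysosomes SUMF1 (0.33 ± 0.09) rose and the mannose 6-phosphate receptor M6PR (-1.15 ± 0.29) fell. In MDA-MB-453 17 of the 134 rose at 24 h and 2 fell, against 5.66% and 2.64% of all tested genes. In MCF none was called (limma; 3 had an unadjusted p under 0.05, against 5.82% of all tested genes).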

How the data were processed

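Transcripts were measured on 25 Affymetrix arrays. The deposited values are log2 expression values that the authors made with GCRMA 2.20.0 in R 2.11.1, per the submitters' processing notes. GCRMA corrects for background, makes the arrays' distributions alike and sums up each probe set, so an overall shift in RNA per cell would not show. Which arrays were processed together is not given in the sources used here, so levels set across lines rest on the assumption that all were. Of 54613 probe sets 41091 carried 1 gene symbol in the platform annotation, 1801 several and 11721 none, and only the first kind was used.

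Each line was fitted on its own with limma 3.58.1 in R 4.3.3 (lmFit and eBayes). Differences between the changes of lines, and levels at 0 min, were fitted on the arrays of both lines. P-values were adjusted by Benjamini-Hochberg over all 12643 tested genes, and a call is an adjusted p under 0.05; ± is the standard error of a difference unless SD is named. The number of arrays limits the precision. The tests were checked on simulated data with known changes. The fits of BT20 recovered most of the larger changes and a minority of the smaller ones. That of MDA-MB-453 recovered fewer of the larger changes and few of the smaller ones. That of MCF recovered none, so a missing call in MCF carries little information. In the simulation far fewer genes changed than were called in BT20 at 6 h and 24 h, and fewer than were called in MDA-MB-453. Genes also varied independently, and no array stood apart like replicate 4. It is thus no close check of those BT20 fits. Alternatives were other filters, averaging all probe sets of a gene, trended and robust empirical Bayes, array weights, repeated quantile normalization, centring of arrays, a replicate block, 1 fit to all arrays, the array term and leaving out each array.

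Any member may be named; values on every array are given for up to 8 members called higher and 8 lower with the largest changes in each comparison and for 14 chosen members in BT20, and from each further list up to 3 genes a direction with the smallest p. The members, the lists, the array term and these rules were chosen with earlier results of these data known. Replicate numbers were not used as pairs, since samples with the same number did not deviate together (r of -0.64 to 0.80).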

Additional observations from a re-analysis of the deposited data

Results flagged for a closer look

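In 9 of the 54 tested members 1 of the 4 BT20 arrays at 0 min lay far outside the others, and in all 9 it was replicate 4. For a single gene chance alone would set 1 array apart in about 1 in 20 such groups. That rate cannot be applied to the 9 together, since they share an array that also stood apart over all tested genes. How many of all tested genes had such an array was not computed, so whether the 9 set the members apart from other genes is not known. Replicate 4 was lower for ATG4D (9.60, the others 10.11 to 10.20), ATG7 (8.39, the others 9.30 to 9.48), TFEB (4.25, the others 4.74 to 4.76), HEXA (9.75, the others 10.71 to 10.84), GAA (3.77, the others 5.61 to 5.75) and NEU1 (8.57, the others 9.81 to 10.03). It was higher for ATG16L1 (10.93, the others 8.96 to 9.22), GABARAPL2 (12.49, the others 11.90 to 11.92) and RRAGC (10.60, the others 9.85 to 9.92).

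The 24 h change differed between lines, by a test of the difference itself in limma, for 10 members between BT20 and MDA-MB-453: ULK1 (1.65), ATG13 (1.42), CALCOCO1 (1.04), WIPI1 (0.86), ATG5 (0.52), NBR1 (0.51), ULK2 (-0.69), RRAGD (-0.81), CTSL (-0.91) and MITF (-1.41), as BT20 minus MDA-MB-453 in log2 units. The value of ULK2 reflects MDA-MB-453 alone, since its BT20 arrays lay below the level used for testing. Between BT20 and MCF it differed for CALCOCO1 (1.96), ULK1 (1.41), ATG13 (1.11), WIPI1 (1.02) and MITF (-1.03).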

How the results depend on the processing

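The counts of members called in BT20 at 24 h (23, and 20 to 33 with other settings) and at 0 min between the lines (42) stayed within 1.5 times under every alternative run, except for the 24 h count on leaving out an array. With the array term the count at 6 h was 2, at 24 h against 6 h 7, for BT20 minus MDA-MB-453 20 and for BT20 minus MCF 8. Array weights gave 32 in MDA-MB-453, 23 for BT20 minus MDA-MB-453 and 35 for BT20 minus MCF, and their estimate stopped before convergence in 5 of 9 comparisons, these among them. The mean of all probe sets gave 8 in MDA-MB-453 and 8 for BT20 minus MCF, and 1 fit to all 25 arrays gave 1 in MCF, where most calls of that fit were false on simulated data, and 6 for BT20 minus MDA-MB-453. With the replicate number as a block, which does not pair these samples, the counts were 0 in MDA-MB-453, 19 for BT20 minus MDA-MB-453 and 8 for BT20 minus MCF. Leaving out 1 array gave 0 to 0 at 30 min, 20 to 40 at 6 h, 14 to 32 at 24 h, 25 to 28 at 24 h against 6 h, 1 to 6 in MDA-MB-453, 0 to 0 in MCF, 8 to 20 for BT20 minus MDA-MB-453, 4 to 8 for BT20 minus MCF and 39 to 44 at 0 min. Apart from the array term, the shares of all tested genes called under these settings are not given. A shift in a member count was thus not set against the shift over all genes.

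Signs turned with the mean of all probe sets at 6 h for ATG5 (0.018), OPTN (0.19), TFE3 (-0.015) and RRAGC (-0.066), at 24 h against 6 h for LAMP1 (-0.041), and at 0 min for ATG3 (-0.011) and FLCN (0.065). They turned with the array term at 6 h for ATG4D (0.050), ATG7 (0.15), OPTN (0.043), HEXA (0.042) and GAA (0.39), and at 24 h against 6 h for ATG9A (-0.16), ATG4D (-0.039), ATG16L1 (0.081), SQSTM1 (-0.022), MCOLN1 (-0.25), GAA (-0.30) and NEU1 (-0.16). At 24 h in BT20, 1 fit to all 25 arrays ended the calls of ATG10, CTSA, NPC2 and RRAGD, and centring the arrays those of NPC2, RRAGC and SQSTM1; the cause was not tested. Genes near the level used for testing, such as TFEB and in BT20 ULK2, were measured close to background.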

Other observations

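Several members had probe sets that moved in opposite directions at 24 h in BT20. FNIP1 ran from -1.11 to 0.68 over its probe sets, and ATG7 from -0.20 to 0.70. For WIPI2 all tested probe sets were positive (0.12 to 1.40), as they were for ATG5 (0.28 to 0.95) and CTSB (0.34 to 1.29), whereas the probe set with the highest mean changed by 0.27, 0.28 and 0.35. For OPTN (0.95 to 1.61) and MAP1LC3B (0.43 to 0.75) the probe set used had the smallest change.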
